A study of Mus musculus with 12 samples.

Results

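The genes described here encode keratins, the proteins of desmosomes and the building blocks of the cornified envelope, measured in the hypertrophic zone of the mouse growth plate. They were found by gene name on the array, as all names of the keratin, small proline-rich protein, desmoglein, desmocollin and plakophilin series together with Cdsn, Lor, Ivl, Evpl, Ppl, Dsp, Jup and Flg. This gave 108 of the 41174 probes, for 82 genes out of 27962 names, and 19 of the genes had more than 1 probe. The set was chosen by the measured difference of Cdsn between Schmid and its wildtype, among the largest rises there, so the differences between Schmid and its wildtype, and the comparisons that use them, are given as a description. The calls there state the size of a difference against the spread between arrays, no p is given for them, and they are no independent evidence of a change. The comparison of Cog with its own wildtype was not used in that choice and was tested.

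Keratins are the intermediate filaments of epithelia and form pairs of a type I with a type II chain. Simple, single-layered epithelia use Krt8 with Krt18, together with Krt7, Krt19 and Krt20, whereas the basal layer of the epidermis uses Krt5 with Krt14 and its upper layers Krt1 with Krt10. Desmosomes anchor these filaments to the cell membrane through cadherins, the desmogleins and desmocollins, and plaque proteins such as desmoplakin, plakophilins and plakoglobin. In the outermost epidermis corneodesmosin, the product of Cdsn, is secreted onto modified desmosomes, and loricrin, involucrin and small proline-rich proteins are cross-linked into a protein shell, the cornified envelope. Cartilage is no epithelium, and its chondrocytes are usually described by vimentin rather than by keratins.

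The mice formed 4 groups, each of 3 animals aged 14 days with 1 array per animal. Schmid mice were homozygous for a knock-in missense mutation of Col10a1, the gene of collagen X, which hypertrophic chondrocytes secrete. Cog mice carried a transgene in which the Col10a1 promoter drives a misfolding thyroglobulin in the same cells, and animals with 1 or both copies of the transgene were not told apart. Each mutant had wildtype littermates of its own background, called wildtype (Schmid) and wildtype (Cog) below. The zone was cut out by scalpel from a tibia of each mouse, and its RNA was linearly amplified before labelling with Cy3, so transcripts of any cell left in the tissue were measured along with those of the chondrocytes. In such samples fewer cells of a type and less RNA per cell cannot be told apart. Nothing states that the animals of a group came from separate litters.

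Values are quantile normalized log2 intensities. A probe was called when its adjusted p, from limma with Benjamini-Hochberg adjustment over all probes, was 0.05 or less and the difference was at least 2-fold. A probe is said to be detected on an array where the scanner software marked it as well above background. Between 58.5% and 61.4% of all probes were detected on the Schmid arrays, against 47.4% to 58.9% on those of its wildtype, 39.2% to 47.6% in Cog and 40.5% to 58.0% in the wildtype of Cog. The arrays lay on 4 slides. No slide carried mutant and littermate arrays of the same line, and effects of slide and of genotype cannot be told apart. The Schmid arrays were the only ones used here from 1 slide, and the wildtype (Cog) arrays the only ones from another. Wildtype (Schmid) replicate 3 shared a slide with the Cog arrays.

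Most of the set was dim in this tissue. Of the 108 probes, 22 were detected on all 12 arrays, 55 on some of them and 31 on none, and 21 of the 82 genes had no probe detected on any array. No probe was left out for low signal before the fit. The genes with a probe detected on all arrays were spread over the set: Cdsn, keratins of simple epithelia and of the hair, desmoplakin and envoplakin, and several small proline-rich proteins. Desmosomal cadherins had none, and 11 of their 18 probes were detected on no array.

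Small proline-rich probes of 4 genes read the same short repeat, so their signals may come partly from each other's transcripts. They are shown because 3 of the 7 probes called lower in Schmid, those of Sprr2e, Sprr2j and Sprr2k, are among them. The capitals mark a run of 11 bases common to the first 4, which occurs in no other of the 41174 probes of the array. Another run of the same length, gagccttgtcc, is also common to these 4, and no longer one is. The probe of Sprr2g, without either run, is given for comparison. All are written 5′ to 3′ as the array's annotation gives them.
Sprr2b: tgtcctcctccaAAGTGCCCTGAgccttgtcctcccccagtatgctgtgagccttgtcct
Sprr2e: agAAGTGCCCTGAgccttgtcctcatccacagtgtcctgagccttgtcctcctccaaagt
Sprr2j: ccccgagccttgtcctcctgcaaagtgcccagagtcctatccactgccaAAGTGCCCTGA
Sprr2k: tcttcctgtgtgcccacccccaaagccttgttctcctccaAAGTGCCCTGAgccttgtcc
Sprr2g: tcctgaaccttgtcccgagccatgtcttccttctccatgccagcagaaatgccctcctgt

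The longest run shared by a pair of these probes had 28 bases, between Sprr2b and Sprr2k, and the shortest of the longest runs 14 bases. Among all other pairs of probes for different genes of the set no shared run was longer than 13 bases. The annotation of the Sprr2e probe also lists the transcript of Sprr2i. These genes lie in 1 cluster on chromosome 3, with Sprr2d, Sprr2f, Sprr2g and Sprr2h between them, from chr3:92423564-92423623 for the Sprr2b probe to chr3:92539423-92539482 for the Sprr2k probe in the array's own coordinates (mm7), all on the plus strand. Their levels are therefore uncertain as levels of single genes.

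In Schmid, 8 of the 108 probes, of 7 genes, were called higher than in wildtype (Schmid) and 7 probes, of 6 genes, were called lower. This is 7.41% and 6.48% of the set, beside 5.78% and 4.69% of all probes on the array, and the median log2 difference was -0.07 for the set and -0.06 for all probes. The probes called higher were for corneodesmosin, keratins of simple epithelia, Krt5, Krt80 and desmoglein 2, and those called lower were for small proline-rich proteins, a late cornified envelope protein, Krt9 and a probe named for keratin 1.

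Cdsn had the largest difference of the set. Its log2 intensity was 15.68, 15.42 and 15.32 on the Schmid arrays and 10.23, 10.75 and 10.59 on those of its wildtype, a difference of 4.95 (SE 0.20) or 30.9-fold. The groups were far apart relative to the spread within either. The gene has 1 probe, at chr17:33658834-33658893 (mm7, plus strand), which was detected on all 12 arrays, so signal was read in wildtype hypertrophic zones as well. The difference ranged from 4.80 to 5.77 over 25 other ways of processing.

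Keratins of simple epithelia were among the other probes called higher. Krt19, a type I keratin, read 12.41, 12.80 and 12.42 in Schmid and 9.43, 9.81 and 9.60 in wildtype, a log2 difference of 2.93 (SE 0.18) or 7.63-fold, with the probe detected on 1 of the 3 wildtype arrays. Krt20, the type I keratin of intestinal and urothelial cells, read 10.40, 11.04 and 11.07 in Schmid and 9.22, 9.39 and 9.48 in wildtype. It was not detected on any wildtype array, so it was at least 2.47-fold higher. In both cases every Schmid array lay above every wildtype array. Where a probe was detected on no array of a group, a fold is given as a bound, set on each array of that group against the dimmest signal detected there or the probe's own reading, whichever was higher.

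Krt8, the type II partner of Krt18, has a pair of probes. The called probe read 13.39, 13.06 and 13.21 in Schmid and 10.45, 12.17 and 12.45 in wildtype, a log2 difference of 1.53 (SE 0.49). The other read 13.48, 12.93 and 13.12 in Schmid and 10.86, 12.53 and 12.69 in wildtype, a difference of 1.15 (SE 0.43) that was not called. At both probes all Schmid arrays were the brighter ones, but wildtype replicate 1 was far below its own group, and the nearest wildtype array came within 1 log2 unit of the lowest Schmid array. The call of the first probe was lost in every fit that left out an array, other than those without wildtype (Schmid) replicate 3 or Cog replicate 3.

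The other simple-epithelium keratins showed the same order of groups without a call. Krt7 read 12.67, 13.07 and 13.19 in Schmid and 10.70, 12.02 and 12.17 in wildtype at its brighter probe, a log2 difference of 1.35 (SE 0.57), and at its dimmer probe the difference was 0.65 (SE 0.15). Krt18 was not among the genes to be named by the rule, and is given because it pairs with Krt8. It read 11.12, 12.29 and 12.02 in Schmid and 10.41, 11.37 and 10.57 in wildtype, a difference of 1.03 (SE 0.39) with the groups overlapping. Krt17, a keratin of skin appendages and of injured epithelium, differed by 0.71 (SE 0.29).

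Krt80, a type II keratin of many epithelia, was detected on every Schmid array, at 10.59, 10.45 and 10.23, and on none of the others. In wildtype it read 8.57, 8.76 and 8.84, which puts Schmid at least 1.89-fold above it. Dsg2, the desmoglein of simple epithelia and heart, was at least 2.01-fold higher at 1 of its 5 probes, which read 10.72, 10.38 and 10.42 in Schmid and 8.88, 8.43 and 8.42 in wildtype. A second called probe of Dsg2 was detected on no array and gives no fold. The probe of Dsg2 that was detected in wildtype differed by 0.53 (SE 0.20) and was not called, so the probes of this gene did not give a single answer. Krt222, an atypical keratin-like protein, read 10.75, 9.70 and 9.14 in Schmid against 9.25, 8.75 and 8.77 and was not called.

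**Figure D1:**
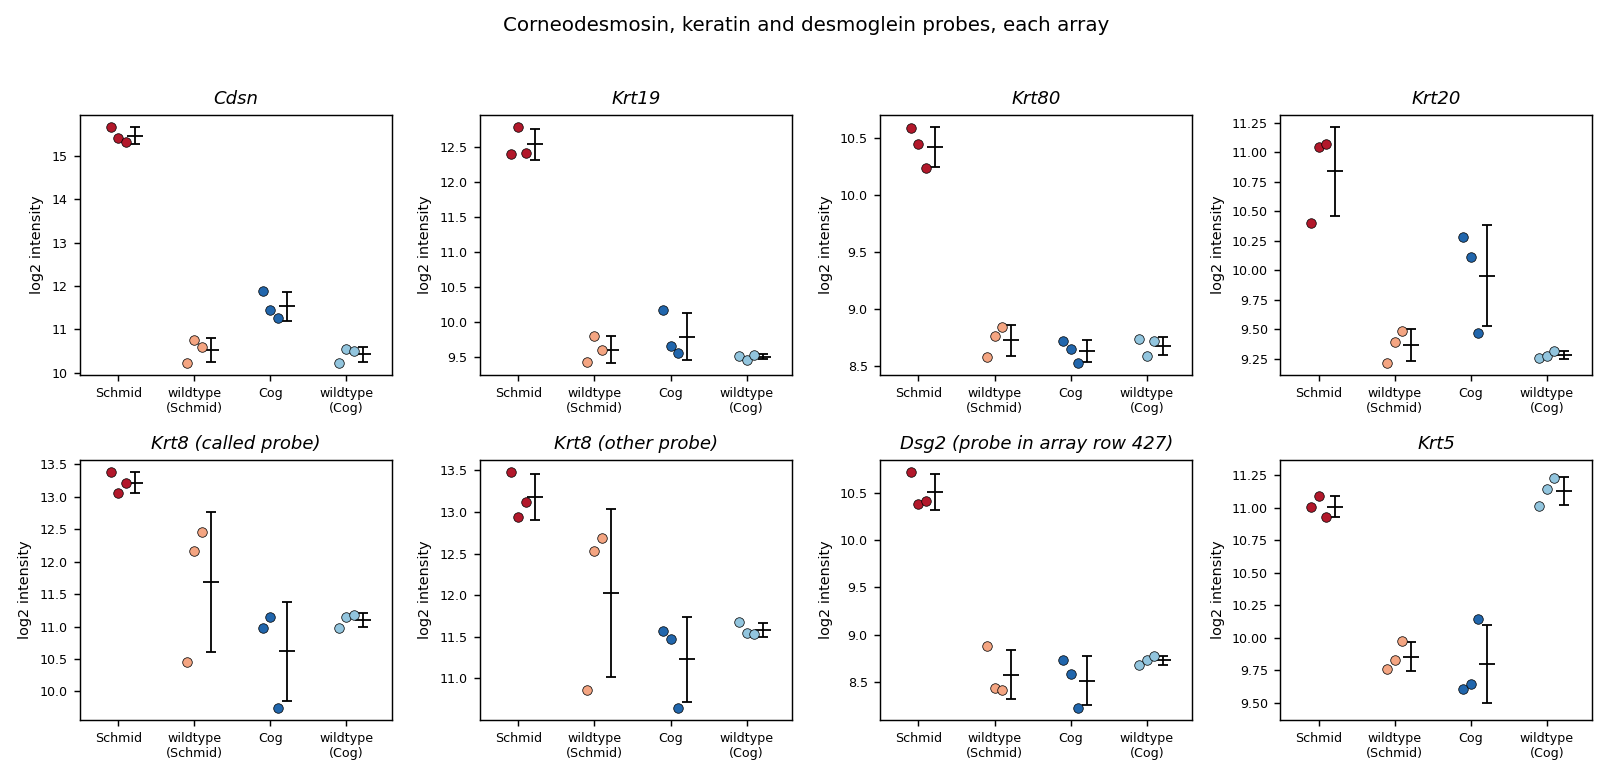
Normalized log2 intensity of 8 probes on each of the 12 arrays, with the mean and SD of each group of 3 (bar). Cdsn, Krt19, Krt80 and the Dsg2 probe stand apart in Schmid, Krt8 is low in wildtype (Schmid) replicate 1, and Krt5 is high in Schmid and in wildtype (Cog) and low in the other groups.

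The probes called lower in Schmid came mostly from the cornified envelope. Sprr2e read 11.06, 11.05 and 11.13 in Schmid and 12.62, 13.22 and 13.27 in wildtype, a log2 difference of -1.96 (SE 0.26). Sprr2j differed by -1.70 (SE 0.28) and Sprr2k by -1.48 (SE 0.16). At all of these the Schmid arrays lay below every wildtype array. Sprr2b, whose probe carries the same run of bases, read 13.51, 13.49 and 13.49 in Schmid against 13.51, 14.20 and 14.53, a difference of -0.59 (SE 0.26) with the lowest wildtype array level with the Schmid arrays. Sprr2g differed by -0.39 (SE 0.17). Neither was called.

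Sprrl5, which RefSeq now names Lce1b, a late cornified envelope protein, was called lower at both of its probes. The first read 8.80, 9.04 and 9.03 in Schmid, detected on no Schmid array, and 10.35, 11.17 and 11.12 in wildtype, at least 3.49-fold lower by the bound used here. On Schmid replicate 1 the dimmest detected signal was only 5.96, so there the bound rests on the probe's own undetected reading. The second read 10.59, 10.50 and 10.56 in Schmid and 11.66, 12.10 and 12.005 in wildtype, a log2 difference of -1.37 (SE 0.12). Krt9, the type I keratin of palms and soles, read 9.41, 9.53 and 9.47 in Schmid and 10.52, 11.54 and 11.61 in wildtype, a difference of -1.75 (SE 0.28). The arrays of the groups did not overlap at any of these probes.

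Keratin 1 appears on the array as Krt2-1, with a pair of probes that did not go the same way. The probe called lower, by -1.25 (SE 0.29), comes from a cDNA clone and lies on the plus strand at chr15:101834630-101834689 (mm7), whereas the probe of the RefSeq transcript lies on the minus strand at chr15:101831833-101831892. The latter differed by 0.37 (SE 0.12) and was not called. By these positions the lower value does not come from the strand of the annotated keratin 1 transcript.

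All 7 probes called lower in Schmid sat between rows 23 and 160 of the 532 rows of the array, while the 8 called higher were spread from row 32 to row 527. Probes of every kind read lower in Schmid there: in rows 1 to 177 the median log2 difference of all probes was -0.24 and 9.84% were called lower, against 0.01 and 2.13% in the other rows. For the set the medians were -0.37 over 39 probes and 0.04 over 69 probes. With the trend over rows taken out, all 7 were still called, and with a trend over GC content taken out as well 5 were, Sprr2j and Sprr2k being lost. The part of position on the array in the lower values of Sprr and Krt9 probes was not tested further.

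**Figure D2:**
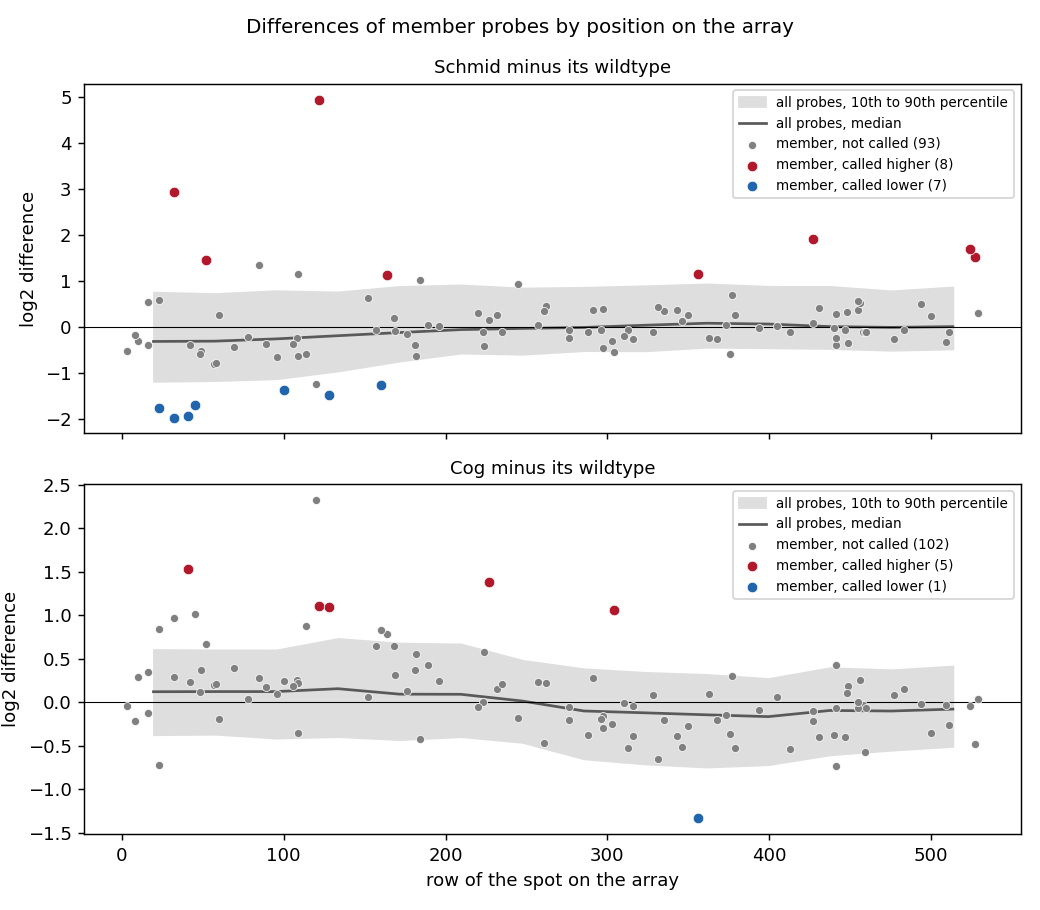
Log2 difference of the 108 probes against the row of their spot, for Schmid (top) and Cog (bottom), over the median and the 10th to 90th percentile of all probes in bins of 38 rows. Every probe called lower in Schmid lies between rows 23 and 160, where the median of all probes is below 0, and the probes called higher lie all along the array.

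In Cog, 5 of the 108 probes were called higher than in wildtype (Cog) and 1 was called lower, 4.63% and 0.926% of the set, beside 1.56% and 0.748% of all probes. The median log2 difference was 0.05 for the set and 0.00 for all probes. Sprrl5, Krt16, Cdsn, Sprr2k and Krt84 rose, and Krt5 fell. Position on the array went with the values here too. In rows 1 to 177 the median of all probes was 0.13 and 2.26% were called higher, against -0.07 and 1.22% in the other rows. Of the 5 probes called higher, 3 lay in rows 1 to 177.

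Cdsn rose in Cog as well, by far less than it differed in Schmid. Its log2 intensity was 11.89, 11.43 and 11.26 in Cog and 10.22, 10.54 and 10.49 in wildtype, an increase of 1.11 (SE 0.20) or 2.15-fold with an adjusted p of 0.0149 from limma. All 3 Cog arrays lay above all 3 wildtype arrays. The increase was 0.96 with the trend over rows removed, and so under the 2-fold limit, at an adjusted p of 0.0285. It was 0.92 without Cog replicate 1, and its adjusted p was 0.052 without wildtype (Cog) replicate 2 and 0.0581 when Cog was fitted with its own wildtype alone. Against wildtype (Schmid) replicate 3, the array on the same slide, the Cog mean was 0.94 higher.

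Krt16, a type I keratin of wounded and hyperproliferative epidermis, read 13.50, 13.002 and 13.22 in Cog and 12.05, 11.53 and 11.99 in wildtype, an increase of 1.38 (SE 0.27) with an adjusted p of 0.0216. Leaving out Cog replicate 1, Cog replicate 3, wildtype (Cog) replicate 2 or wildtype (Cog) replicate 3 took its adjusted p to between 0.0544 and 0.0909. Krt84, a hair keratin, read 18.16, 17.93 and 18.28 in Cog and 17.53, 16.62 and 17.03 in wildtype. Its increase of 1.06 (SE 0.24) had an adjusted p of 0.0362, which was above 0.05 in the fits without any one of the Cog arrays, without wildtype (Cog) replicate 2 or 3, and without Schmid replicate 2 or 3. The Krt84 signal was close to that of the cartilage collagen Col2a1, which read 18.77, 18.46 and 18.77 on the Cog arrays. Whether the Krt84 probe reads that transcript alone was not tested. Neither Krt16 nor Krt84 was called in Schmid, where the differences were 0.17 (SE 0.27) and -0.53 (SE 0.24). Against wildtype (Schmid) replicate 3, on the same slide, the Cog mean was 0.38 higher for Krt16 and 0.95 higher for Krt84.

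The cornified envelope probes that were lower in Schmid were on the high side in Cog. Sprrl5 read 11.71, 11.38 and 11.79 in Cog and 9.76, 10.09 and 10.41 in wildtype at its first probe, an increase of 1.54 (SE 0.24) with an adjusted p of 0.00865, whereas its second probe differed by 0.24 (adjusted p of 0.289). Sprr2k read 14.01, 13.85 and 14.06 in Cog and 12.99, 12.89 and 12.75 in wildtype, an increase of 1.10 (SE 0.16) with an adjusted p of 0.00841. Sprr2e and Sprr2j differed by 0.98 and 1.02 and missed the threshold, with adjusted p of 0.0634 and 0.0676. The Cog and wildtype (Cog) arrays were fully apart at each of these probes. Against wildtype (Schmid) replicate 3, on the same slide, the Cog mean differed by 0.51 and -0.16 at the Sprrl5 probes and -0.10 at Sprr2k. With the trend over rows removed the increase of Sprr2k was 0.95, under the 2-fold limit, at an adjusted p of 0.0154. Over all alternatives the adjusted p was as low as 0.00265 for Cdsn, 0.00348 for Krt16, 0.0051 for Krt84, 0.000814 for Sprr2k, 0.00141 for Sprrl5 and 0.000213 for Krt5, and it was 1 for each in the test against a 2-fold null.

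These probes ordered the groups in a way that did not follow mutant against wildtype. At Sprr2e the Cog arrays, at 13.01, 12.85 and 13.20, stood level with wildtype (Schmid), while wildtype (Cog), at 11.49, 12.04 and 12.61, lay between those and Schmid. Sprr2j and Krt9 gave the same order of group means, and at Sprr2k Cog, with a mean of 13.97, stood just above wildtype (Schmid) at 13.84. The wildtype groups differed by 0.995 at Sprr2e, 1.04 at Sprr2j and 0.96 at Sprr2k, none of them called. Without wildtype (Schmid) replicate 1 all of these were, with Krt9, Krt10 and Sprrl5.

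**Figure D3:**
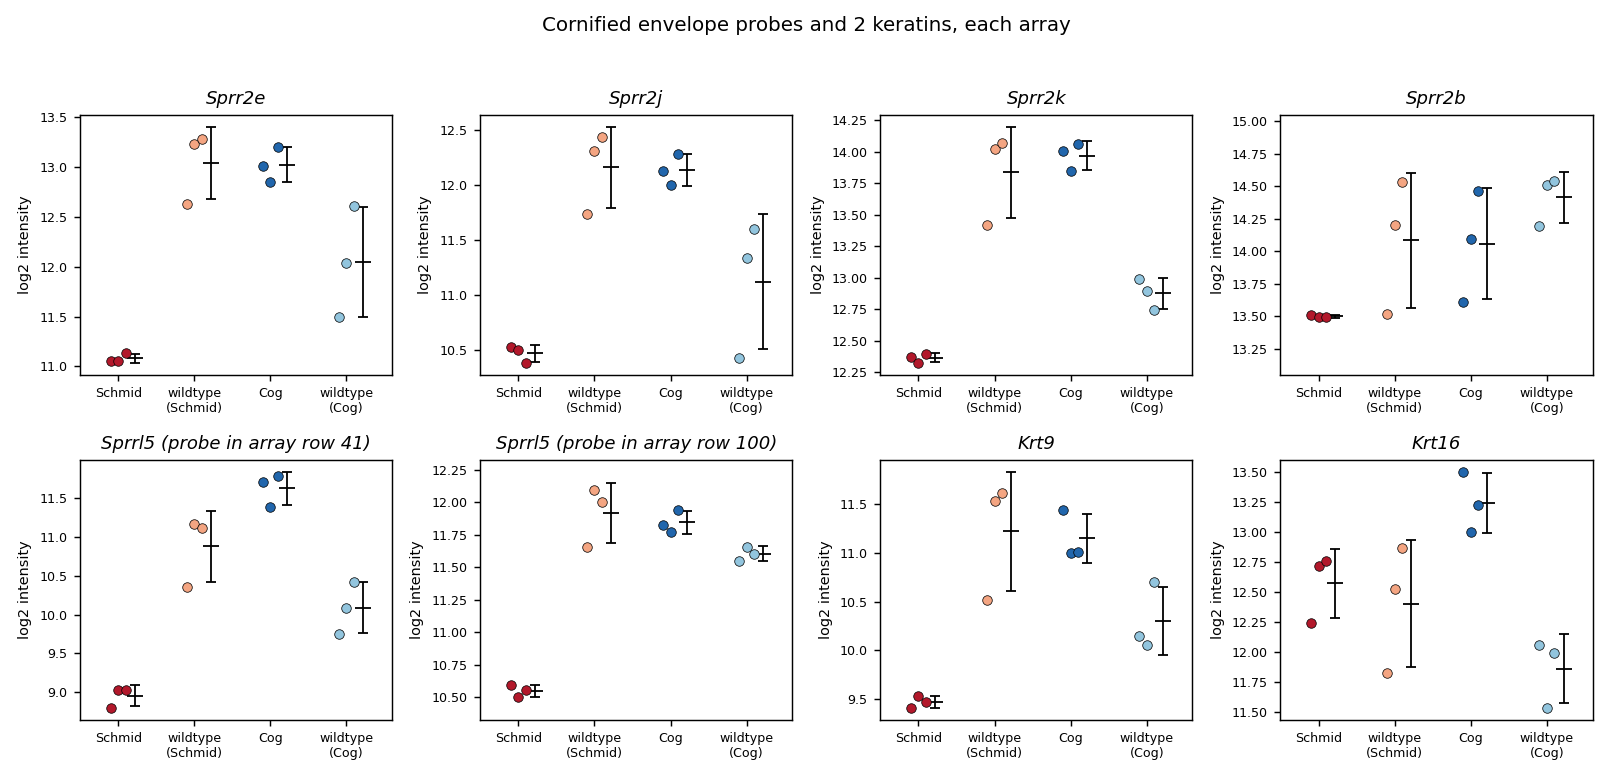
Normalized log2 intensity of 8 probes on each of the 12 arrays, with the mean and SD of each group of 3 (bar). The Sprr2e, Sprr2j, Sprr2k, Sprrl5 and Krt9 probes are lowest in Schmid, with Cog near or above wildtype (Schmid), Sprr2b overlaps between groups, and Krt16 is highest in Cog.

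Krt5, the type II keratin of basal epidermis, was called in opposite directions, higher in Schmid and lower in Cog, whereas Sprr2k and the first Sprrl5 probe were called lower in Schmid and higher in Cog. It read 11.01, 11.09 and 10.93 in Schmid and 9.76, 9.83 and 9.97 in wildtype (Schmid), a difference of 1.16 (SE 0.15). In Cog it read 9.60, 9.65 and 10.15, with 1 array detected, and in wildtype (Cog) 11.02, 11.14 and 11.23. It fell by 1.33 on the log2 scale (SE 0.15) with an adjusted p of 0.00228. The wildtype groups themselves were apart by -1.28 (SE 0.15), and this was the only difference called between them in the set. There limma called 0 probes higher and 1 lower in wildtype (Schmid), or 0% and 0.926% of the set beside 0.233% and 0.236% of all probes, and 20 probes had an unadjusted p of 0.05 or less. Schmid thus stood level with wildtype (Cog), and Cog with wildtype (Schmid). On the slide that Cog shared with wildtype (Schmid) replicate 3, the Cog mean was 0.18 lower than that array. Its usual type I partner, Krt14, was detected on 11 arrays and was called in neither mutant, with differences of -0.05 in Schmid and 0.65 in Cog (adjusted p of 0.15).

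Keratin 2, named Krt2-17 on the array, a type II keratin of the upper epidermis, had the largest difference of the set in Cog at 1 of its probes, which read 14.27, 13.66 and 13.16 in Cog and 12.66, 10.26 and 11.20 in wildtype. The log2 difference of 2.32 (SE 0.58) had an adjusted p of 0.0511, just above 0.05, and the wildtype arrays were spread over more than 2 log2 units. It was called under 6 of 25 alternatives, among them the fit without dim probes and that without wildtype (Cog) replicate 1. The other probe differed by 0.22 (adjusted p of 0.345).

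The difference between the changes in Schmid and in Cog was called positive at 6 probes and negative at 12, 5.56% and 11.1% of the set, beside 4.38% and 5.88% of all probes. Cdsn, Krt19, Krt80, Krt5, Krt85 and a probe of Dsg2 made up the first group. The second held the Sprr2e, Sprr2j, Sprr2k, Sprr4, Krt9, Krt84, Krt2-1 and Krt2-17 probes, both probes of Sprrl5, and a probe each of Ppl and Krt10.

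**Figure D4:**
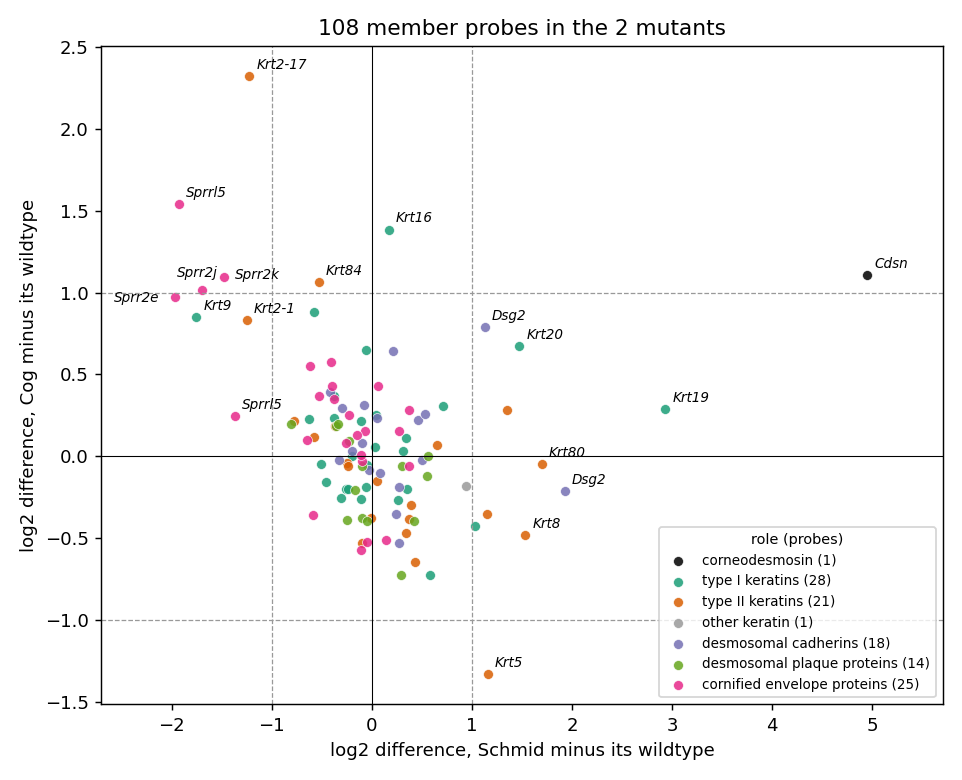
Log2 difference of each of the 108 probes in Schmid (horizontal) and in Cog (vertical), coloured by role, with dashed lines at 2-fold; probes called in either mutant and the Krt2-17 probe are named. Cdsn lies alone at 4.95 in Schmid and 1.11 in Cog, most cornified envelope probes lie to the upper left of the origin, and Krt5 lies at the lower right.

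By role, the counts below stand beside 5.78% of all probes called higher and 4.69% called lower in Schmid, and 9.84% called lower in the rows that held every member called lower. In Cog they stand beside 1.56% of all probes called higher and 0.748% called lower, and 2.26% called higher in rows 1 to 177. Of 25 cornified envelope probes, 5 were called lower and 0 higher in Schmid, with a median log2 difference of -0.26 and 5 probes above 0; in Cog 2 were called higher and 19 lay above 0, with a median of 0.24. Of 21 type II keratin probes 3 were called higher and 1 lower in Schmid, with a median of 0.05, and in Cog 1 rose and 1 fell. Of 28 type I keratin probes 2 were called higher and 1 lower in Schmid, and 1 rose in Cog. Of 18 desmosomal cadherin probes, 2 were called higher in Schmid and 0 in Cog. None of the 14 probes of desmosomal plaque proteins was called in either mutant, with differences between -0.81 and 0.56 in Schmid and between -0.73 and 0.20 in Cog.

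Among the plaque proteins the best measured showed no call. Desmoplakin, which ties keratins to the plaque, read 13.15, 12.85 and 13.11 in Schmid against 12.65, 13.37 and 13.39 at its brightest probe, and differed by -0.37 in Cog (adjusted p of 0.403). Envoplakin, a plakin of the cornified envelope, differed by -0.25 (SE 0.38) in Schmid and -0.39 (SE 0.38) in Cog, and Pkp4, a plakophilin also found at other junctions, by 0.29 (SE 0.46) and -0.73 (SE 0.46). The probe of plakoglobin, Jup, was detected on no array.

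The remaining genes detected on all arrays were called in neither mutant. One probe of Sprr2a read 17.73, 17.79 and 17.76 in Schmid and 17.29, 17.45 and 17.41 in wildtype, a log2 difference of 0.37 (SE 0.10), with 0.28 in Cog (adjusted p of 0.137). The other Sprr2a probe, detected on 9 arrays, was far dimmer. It read 9.78, 9.99 and 9.89 in Schmid and 9.87, 9.74 and 10.38 in wildtype, a difference of -0.11 (SE 0.15). The level of this gene is therefore uncertain. Sprrl3, now Lce1a1, Krt33b and Krt75 differed by -0.05, -0.10 and -0.01 in Schmid and by -0.52, -0.26 and -0.38 in Cog. Krt10 was not called at either probe, with differences of 0.58 and -0.58 in Schmid and of -0.72 (adjusted p of 0.5) and 0.88 (adjusted p of 0.0601) in Cog.

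The markers of epidermis were also checked. Of 15 keratinocyte genes on a list, 1, Sfn, was detected on all arrays at its best probe, and 5 on none: Flg, Ivl, Dsg1a, Dsc1 and Dsc3. Loricrin was detected on 11 arrays and read 10.18, 10.23 and 10.34 in Schmid against 10.07, 10.17 and 10.83, with a difference of -0.11 (SE 0.23). Krt5 and Cdh1, the epithelial cadherin, were called higher in Schmid and Krt5 lower in Cog, and the median differences over the list were -0.05 and -0.07. The log2 of the summed level of the list was 14.8 to 15.0 in Schmid, 14.4 to 15.0 in its wildtype, 14.7 to 14.9 in Cog and 15.0 to 15.2 in wildtype (Cog). Sfn, which read 13.3 to 14.7, was the largest term of that sum on every array. The ranges overlapped between Schmid and its wildtype and were lower in Cog than in its wildtype, with no overlap. Filaggrin and involucrin were detected on no array, whereas loricrin, Krt14 and the better detected probe of Krt10 were each detected on 11.

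Other epithelial genes that are no members of the set were counted from lists. Of 20 further junction and hemidesmosome genes, 5 were called higher and 0 lower in Schmid, beside 5.78% and 4.69% of all probes, and 0 in Cog. The 5 were Epcam, Lamb3, Perp, Col17a1 and Cdh1, with log2 differences from 1.61 for Epcam, a cell adhesion molecule of simple epithelia, to 1.16 for Cdh1, which was detected on 1 array. Epcam, Col17a1 and Cdh1 were detected on no array of wildtype (Schmid), and the median over the list was 0.06. Perp, a desmosomal membrane protein, read 14.31, 14.36 and 14.41 in Schmid and 12.85, 13.56 and 12.93 in wildtype.

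Of 32 cornification genes outside the set, 4 were called higher and 3 lower in Schmid, and 2 rose and 0 fell in Cog, with medians of -0.09 and -0.18 (list medians, beside -0.06 and 0.00 for all probes). Of all probes, 5.78% were called higher and 4.69% lower in Schmid, and 1.56% and 0.748% in Cog. In Schmid, Cst6, an inhibitor of the proteases that process the envelope, read 10.86, 11.60 and 11.49 against 8.89, 8.92 and 9.09, and Anxa1, an envelope-associated annexin, differed by 1.74. The transglutaminase Tgm3 differed by -1.28 and the protease Asprv1 by -1.004. Casp14 was called higher, by 1.10. Lce1f was called higher and Lce1c lower, but neither was detected on any array. In Cog, Tgm5, a transglutaminase that cross-links the envelope, rose by 2.70 (SE 0.53) with an adjusted p of 0.0216, and Lce1l rose by 1.59 (SE 0.29) with an adjusted p of 0.0163. Tgm5 read 14.08, 13.29 and 12.99 in Cog and 11.65, 9.92 and 10.70 in wildtype, and at Tgm5 as at the Krt2-17 probe replicate 1 was the highest of the wildtype arrays. Of 16 other intermediate filament genes, vimentin among them, only Bfsp2, a filament of the lens, was called, lower in Schmid by a log2 difference of -1.92.

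Genes of other cells differed between the groups as well. In Schmid 3 of 5 erythroid, 3 of 7 endothelial and 2 of 6 osteoclast markers were called lower, as were 4 of 12 chondrocyte markers. Of 7 skeletal muscle markers 1, Myh1, was called lower, by a log2 difference of -1.44, and of 6 neutrophil granule markers 0 were. Of all probes 4.69% were called lower there. Muscle and neutrophil markers were uneven within groups. Myh4 read 10.27, 11.72 and 16.55 in wildtype (Cog), and S100a9 read 18.07, 16.62 and 11.58 in wildtype (Schmid). Of 8 hypertrophic markers, all detected on all arrays, 2 were called lower in Schmid, Ihh by a log2 difference of -3.55 and Alpl by -1.11. In Cog Ihh fell by 1.37 on the log2 scale (adjusted p of 0.0361), and no other gene of these lists was called. The part of tissue composition in the values above was not tested.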

How the data were processed

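The members and the gene lists were chosen with earlier results of these data known. Total RNA of the hypertrophic zone was amplified by 2 rounds, labelled with Cy3 and hybridized to Agilent arrays, and the authors deposited the intensity of each spot as read by Feature Extraction 9.5.3, together with a matrix of log2 values (deposited as normalized). Here the mean and local background intensity were combined by normexp with an offset of 50, spots marked as outliers were left out, the log2 values were quantile normalized, and spots of a probe were averaged. Probe names and mm7 positions are those of the array; 82 of the 108 accessions matched RefSeq (GRCm38.p6), 14 under another symbol. The 4 group means were fitted over 12 arrays with limma 3.58.1 in R 4.3.3 (8 residual degrees of freedom, Benjamini-Hochberg over 41174 probes). The fit was tested on simulated data with independent noise at each probe, which held no effects of slide, row or GC content. The number of arrays limits the precision, and p-values measure the spread between these samples only. Named genes are Cdsn, those with a called probe in any contrast, those with a probe detected on all 12 arrays, and the main epidermal markers. From the other lists the called genes were named in part. For a gene with several probes that were called alike, the one detected on most arrays was taken. In the gene lists each gene was counted by that probe alone, without regard to the calls of its other probes. The alternatives are listed after the report.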

Additional observations from a re-analysis of the deposited data

Results flagged for a closer look

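At 18 probes the difference between the change in Schmid and the change in Cog was called, which brought them here. Since the set was selected by a rise in Schmid, and Cdsn is the gene it was selected by, the values are a description and no test of these genes. The difference, the change in Schmid minus the change in Cog on the log2 scale, was 3.84 (SE 0.28) for Cdsn, 2.64 (SE 0.25) for Krt19, 2.49 (SE 0.21) for Krt5, 2.14 (SE 0.24) for a probe of Dsg2, 1.75 (SE 0.17) for Krt80 and 1.08 (SE 0.24) for Krt85. Krt5 was called higher in Schmid and lower in Cog. Krt85 was called in neither, with changes of 0.44 in Schmid and -0.65 in Cog. The other 4 were called higher in Schmid, and their differences in Cog lay between -0.21 and 1.11.

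Among the cornified envelope probes the difference was -3.46 and -1.61 for the probes of Sprrl5, -2.94 for Sprr2e, -2.72 for Sprr2j, -2.57 for Sprr2k and -1.16 for Sprr4, and for Ppl it was -1.002. All but Sprr4 and Ppl were called lower in Schmid.

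Among keratins it was -3.55 (SE 0.82) for Krt2-17, -2.60 for Krt9, -2.08 for the plus-strand probe of Krt2-1, -1.59 for Krt84 and -1.46 for a probe of Krt10. The SE of the Krt2-17 value was the highest of the 18.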

How the results depend on the processing

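Counts are of the 108 probes. From the processed signal with quantile normalization, 13 were lower in Schmid, 3 lower in Cog, 2 lower in wildtype (Schmid) than in wildtype (Cog), and the mutants' changes differed at 11 and 23. On a common 75th percentile, the processed signal gave 15 lower in Schmid and 1 higher in Cog, and normexp gave 13 lower in Schmid, 0 lower between the wildtypes and 19 negative differences between the changes. Against a 2-fold null (treat), 4 were higher and 0 lower in Schmid, 0 and 0 changed in Cog, 0 were lower between the wildtypes, and the changes differed at 3 and 3. In Cog 3 rose with the row trend removed, 3 with row and GC trends removed, 3 with its own wildtype alone and 8 with slide as a random block, which also gave 1 higher between the wildtypes. Array weights gave 2 there. The called dim probe of Dsg2 turned to -0.59 on the processed signal at a common percentile.

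Leaving out each array gave 7 to 9 higher and 6 to 7 lower in Schmid, 2 to 6 higher in Cog (2 without Cog replicate 1 or wildtype (Cog) replicate 2) and 1 lower in each, 0 to 6 higher between the wildtypes (6 without wildtype (Schmid) replicate 1), 1 lower throughout, and 6 to 8 positive and 11 to 15 negative differences between the changes. All other counts stayed within 1.5 times.

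Replicate numbers are shared by the labels. Arrays of equal number deviated together by 0.193, 0.171 and 0.066 for Schmid and by -0.116, 0.0721 and -0.106 for Cog, and 5 of 6 and 2 of 6 arrays correlated best with their own number. With the replicate block 8 were higher and 7 lower in Schmid, with Krt18 in place of the Krt8 probe, and 4 rose and 1 fell in Cog, Krt84 being lost at an adjusted p of 0.0649. With slide as a random block the correlation within a slide was -0.122. Signal near background limits the 31 probes detected on no array, whose differences are not measurements of expression.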
